A study of Mus musculus with 2 samples.

Results

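The suppressor of cytokine signalling (SOCS) family was examined in regulatory T cells (Treg cells), the suppressive CD4 lineage specified by Foxp3, from the colon lamina propria of female mice. The family has 8 members, Cish and Socs1 to Socs7, which were taken by gene symbol, and all 8 were among the 55246 loci of the count table. RNA sequencing gave 1 library from wild-type mice (WT) and 1 from mice whose Foxp3 lacks exon 2 (Exon2KO). How the cells were sorted, the age and strain of the mice and whether RNA was pooled from several mice are not given in the sources used here. With 1 library per genotype no value has a replicate check, the genotypes cannot be told apart from any other difference between the 2 libraries, and every interval below covers counting error only.

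Cytokines that bind receptors without kinase activity of their own signal through Janus kinases (JAKs), which phosphorylate STAT transcription factors. Activated STATs induce several SOCS genes, and the SOCS proteins then switch the same receptors off, which makes the family a feedback brake. Each SOCS protein has an SH2 domain that binds phosphotyrosine and a carboxy-terminal SOCS box that recruits elongins B and C and the scaffold Cul5 to form a ubiquitin ligase. In Treg cells the family is known for tuning the response to IL-2, to interferons and to IL-6-type cytokines.

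Promoter windows, from 250 bases before to 50 bases after a RefSeq transcript start on GRCm38.p6, were at hand for 4 of the 8 genes: Cish, Socs1, Socs3 and Socs4. They were searched for the STAT motif TTCNNNGAA, which reads the same on both strands. Cish, the classic STAT5-induced member, held 2 matches and Socs3, the classic STAT3-induced member, held 1, while these letters were not found in the windows of Socs1 and Socs4. Among all 32851 windows, 8.30% held at least 1 match and 0.457% held 2 or more. The same outer letters with 4 bases between them, present in 6.95% of all windows, were not found in any of the 4. The stretches that hold the matches are shown 5′ to 3′ on the strand of the gene, with the matches in capitals.
Cish (chr9:107296655-107296684, plus strand): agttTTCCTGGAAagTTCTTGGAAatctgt
Socs3 (chr11:117969501-117969530, minus strand): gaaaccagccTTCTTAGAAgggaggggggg
In GENCODE M21 the Cish stretch lies in the 5′ untranslated part of the coding transcript that starts farthest upstream, and 26 bases upstream of another coding transcript. The Socs3 stretch lies 315 bases upstream of the coding transcript and in an intron of a non-coding one.

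For Socs1, an interferon-induced gene, the bases upstream of the start site common to both of its coding transcripts are shown because they hold the motif of interferon regulatory factors (IRFs), searched on both strands as GAAA repeated after any 2 bases. This motif was added after the sequence had been seen. It matched at 2 overlapping places in Socs1, printed below as 1 run of capitals, and in none of the windows of Cish, Socs3 and Socs4. Of all windows, 3.44% held a match and 0.225% held 2 or more.
Socs1 (chr16:10785537-10785786, minus strand): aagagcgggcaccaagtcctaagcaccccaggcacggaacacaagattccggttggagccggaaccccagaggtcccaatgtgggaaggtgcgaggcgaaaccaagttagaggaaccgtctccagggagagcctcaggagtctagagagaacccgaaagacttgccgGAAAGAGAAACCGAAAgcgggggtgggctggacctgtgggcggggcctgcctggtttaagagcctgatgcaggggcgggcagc
A match describes these letters and does not show that a factor binds there. Socs2, Socs5, Socs6 and Socs7 had no window among the sequences used.

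The libraries were of like depth, with 16281133 reads assigned to genes in WT and 15412425 in Exon2KO, so that a count of 0 allows up to 1.84e-05% and 1.95e-05% of the reads (3 reads). Foxp3, the targeted gene, had 6991 and 20946 reads, and a count over the whole gene does not test the loss of 1 exon. T cell transcripts were present in both libraries, with 5154 and 5262 reads of Cd3e and 4593 and 5367 of Cd4. Of the 6 T cell markers 0 were called higher and 1 lower by the rule given below, against 7.2% and 6.61% of all genes tested. Their median log2 ratio was -0.21. Cd5 fell from 5894 to 2908 reads (-1.05, -1.11 to -0.98), and Trac was at -0.44, Cd3d at -0.25 and Cd3g at -0.16. Of 4 Treg markers, Foxp3 was called higher and Ikzf2, which encodes the transcription factor Helios, was called lower, from 8476 to 440 reads (-4.29, -4.44 to -4.16). The other 2 Treg markers were not called, with Ctla4 at 0.71 and Il2ra at -0.35. The part of these differences in the SOCS ratios was not tested. Transcripts of other cells were present as well. The 6 markers of B and plasma cells summed to 7816 CPM (reads relative to the scaled library size) in WT and 7285 in Exon2KO, nearly all of it Jchain.

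In length-scaled terms Socs3, Socs1 and Cish stood highest in both libraries, Socs2 came next, and Socs4 to Socs7 were lowest. The levels here are the deposited FPKM values, reads scaled by gene length and library depth, with intervals from the counts. In the WT library Socs3 stood highest at 77.3 FPKM (74.8 to 79.9), followed by Socs1 at 53.5 (51.4 to 55.7), Cish at 47.3 (45.9 to 48.6) and Socs2 at 12.4 (11.8 to 12.9). Then came Socs5 at 6.22 FPKM (5.65 to 6.84), Socs4 at 4.13 (3.76 to 4.53), Socs6 at 2.00 (1.77 to 2.26) and Socs7 at 0.864 (0.702 to 1.05). No 2 neighbours in this order had overlapping intervals in WT. For scale, 717 protein-coding genes had a higher FPKM than Socs3 in WT, and the median of the 14440 protein-coding genes with a read there was 2.31 FPKM.

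In the Exon2KO library Socs3 was again first, at 50.3 FPKM (48.3 to 52.4), but Cish at 40.9 (39.7 to 42.1) stood above Socs1 at 35.2 (33.5 to 37.0), and Socs2 had come up to 25.7 (24.9 to 26.5). Socs4 followed at 3.95 FPKM (3.58 to 4.34). The last 3 places were Socs5 at 2.29 (1.95 to 2.67), Socs6 at 1.76 (1.54 to 2.00) and Socs7 at 1.65 (1.43 to 1.90), and neighbours among these 3 had overlapping intervals. Socs1 and Cish thus exchanged places in the order, as did Socs5 and Socs4. The lengths behind these values join all annotated transcripts of a gene, 9531 bases for Socs2 against 2891 for Socs3, so the order between genes rests on that choice while the comparison of a gene between libraries does not.

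**Figure D1:**
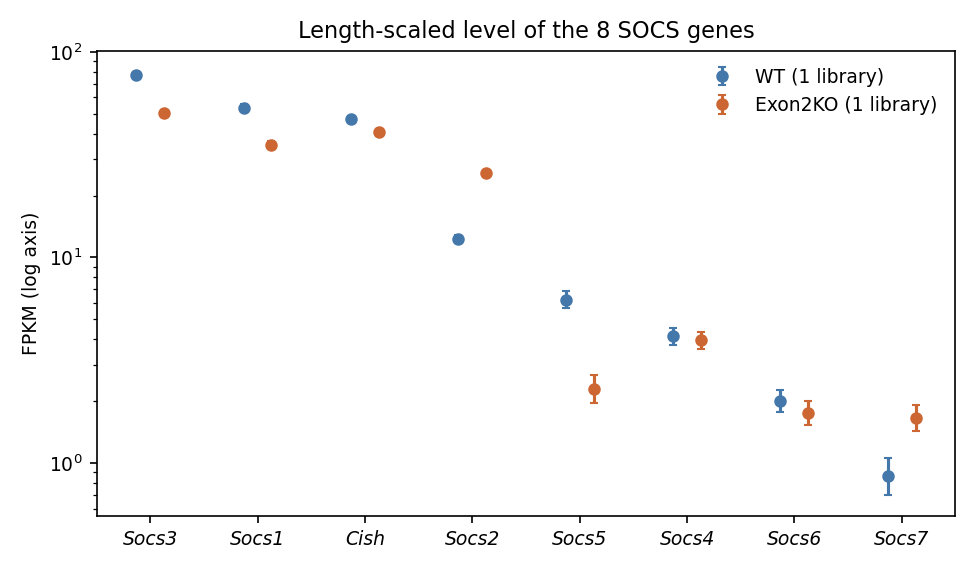
FPKM of each SOCS gene on a log axis, with genes ordered by the WT level, the WT library in blue and the Exon2KO library in orange, and bars showing 95% Poisson intervals of the counts. Socs2 moved from 12.4 to 25.7 FPKM and Socs5 from 6.22 to 2.29, while the points of Socs4 and Socs6 lie close together.

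Reads of all 8 genes added up to 13859 in WT and 13033 in Exon2KO, 0.0851% and 0.0846% of each library. As CPM the sums were 883 and 815, a log2 ratio of Exon2KO over WT of -0.12 (95% interval -0.15 to -0.08). This fall rests on the TMM scaling described below, since the shares of all reads, 0.0851% and 0.0846%, were nearly equal. The FPKM sum, which does not weight long genes, was 204 in WT and 162 in Exon2KO. The sum of reads was thus closer between the libraries than the length-scaled sum, in which Socs3 and Socs1 weigh more and Socs2 less. Counts were scaled by TMM, the trimmed mean of ratios, and a gene was called where its ratio was at least 2-fold and the Benjamini-Hochberg adjusted p of a 2-sided exact binomial test over all 17363 genes with 10 or more reads was below 0.05. It tests the reads of 1 library against the other, so its p-values say nothing about how mice of a genotype vary.

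By this rule 1 member, Socs2, was called higher in Exon2KO and 1, Socs5, was called lower. Over all genes tested 7.2% were called higher and 6.61% lower. Genes with few reads pass a fold threshold more easily. Among the 8694 genes with at least 250 reads, a minimum chosen after the data were seen that all 8 members pass, 2.71% were called higher and 3.52% lower. A ratio below 0 was found for 6 members (5 with total counts in place of TMM, where Socs4 changed sign) and above 0 for 2, and their median was -0.21, against 0.00 over all genes tested and -0.02 over genes with at least 250 reads. With 8 members, 1 call in each direction is a small number to set against these shares, and nothing is read from it about the family as a whole. At 1.5-fold 2 members were called higher and 3 lower, against 10.5% and 10.6% of all genes, and at 4-fold 0 members were called, against 2.87% and 2.35%. With total counts 2 members were called higher and 1 lower, against 8.53% and 5.66% of genes. With a minimum of 50 reads 1 was called each way, against 5.1% and 5.38%. The interval did not hold 0 for 6 of the 8 members, as did 59.6% of the genes with at least 250 reads, so at this depth an interval clear of 0 was common.

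**Figure D2:**
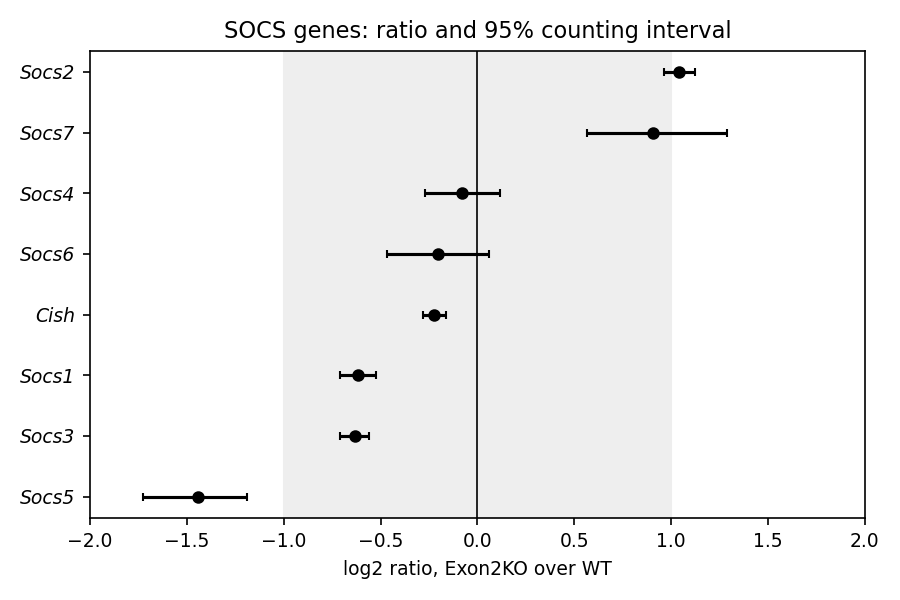
Log2 ratio of Exon2KO over WT for each SOCS gene with its 95% Clopper-Pearson counting interval, and the range within 2-fold shaded grey. Socs2 at 1.04 and Socs5 at -1.44 lie outside the shading, and the intervals of Socs4 and Socs6 cross 0.

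Cish and Socs2 encode a related pair of the family, and both are induced through STAT5, the STAT downstream of IL-2. Cish (ENSMUSG00000032578, chromosome 9, 107296026 to 107302784, plus strand) had the most reads of any member, 4784 in WT and 4176 in Exon2KO, or 305 CPM (296 to 314) and 261 CPM (253 to 269). The WT library was slightly higher, at a log2 ratio of -0.22 (-0.28 to -0.16), and 27.1% of genes with at least 250 reads had a ratio at or below it. The start of Cish is overlapped on the other strand by the pseudogene Gm17040, with 33 and 34 reads. The antisense gene Gm17041, with 0 reads in both libraries, also overlaps Cish. The effect of these overlaps on the Cish counts was not tested.

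Socs2 (ENSMUSG00000020027, chromosome 10, 95385362 to 95417180, minus strand) is best known as a brake on growth hormone signalling. It had 1857 reads in WT and 3900 in Exon2KO, or 118 CPM (113 to 124) and 244 CPM (236 to 252). Socs2 rose 2.06-fold in the Exon2KO library, a log2 ratio of 1.04 (0.96 to 1.12), and 2.47% of genes with at least 250 reads had a ratio as high. The lower limit falls short of 2-fold, so its place past the threshold is not settled even by counting error alone. In the authors' deposited table Socs2 had a log2 fold change of 1.04 and an adjusted p-value of 0.159.

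Cish and Socs2 therefore did not move together. There were 0.388 Socs2 reads for each Cish read in WT and 0.934 in Exon2KO, a shift of 1.27 on the log2 scale (1.17 to 1.37). A ratio of 2 genes within a library does not depend on the scaling between libraries.

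Socs1 and Socs3 are the members with a kinase inhibitory region, a short stretch that blocks JAKs directly. Socs1 (ENSMUSG00000038037, chromosome 16, 10782240 to 10785536, minus strand), a brake on interferon-gamma and common gamma chain cytokines, had 2454 reads in WT and 1630 in Exon2KO, or 156 CPM (150 to 163) and 102 CPM (97.1 to 107). Its log2 ratio was -0.62 (-0.71 to -0.53), 1.53-fold lower in Exon2KO and short of the 2-fold threshold. Socs3 (ENSMUSG00000053113, chromosome 11, 117966079 to 117970047, minus strand), which binds the IL-6 receptor subunit gp130 and restrains STAT3, had 3526 and 2314 reads, or 225 CPM (217 to 232) and 145 CPM (139 to 151). Its log2 ratio was -0.63 (-0.71 to -0.56), 1.55-fold lower and not called.

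The Socs1 and Socs3 ratios were nearly equal. There were 0.696 Socs1 reads for each Socs3 read in WT and 0.704 in Exon2KO, a difference between the 2 log2 ratios of 0.02 (-0.10 to 0.14). Of genes with at least 250 reads, 7.81% had a ratio at or below that of Socs1 and 7.46% at or below that of Socs3. The authors' deposited table gives both an adjusted p-value of 0.628.

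Socs4 and Socs5 form a pair with long amino-terminal regions, known mainly for acting on the epidermal growth factor receptor. Socs5 has also been tied to the IL-4 receptor in T cells. Socs4 (ENSMUSG00000048379, chromosome 14, 47276931 to 47296102, plus strand) had 448 reads in WT and 432 in Exon2KO, or 28.5 CPM (26.0 to 31.3) and 27.0 CPM (24.5 to 29.7). A difference in Socs4 was not detectable at this depth (log2 ratio -0.08, -0.27 to 0.11). With libraries scaled by total counts alone the Socs4 ratio was 0.03, so no direction is given for it.

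Socs5 (ENSMUSG00000037104, chromosome 17, 87107679 to 87137583, plus strand) had 431 reads in WT and 160 in Exon2KO, or 27.5 CPM (24.9 to 30.2) and 10.01 CPM (8.52 to 11.7). It fell 2.72-fold in the Exon2KO library, a log2 ratio of -1.44 (-1.73 to -1.19), with the whole interval past 2-fold. Of genes with at least 250 reads, 1.76% had a ratio as low. The 2 genes of this pair had nearly the same number of reads in WT, 1.04 of Socs4 for each of Socs5, and 2.70 for each in Exon2KO, a shift of 1.38 (1.05 to 1.70).

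Socs5 was also the only member with an adjusted p-value below 0.05 in the authors' deposited table, at 0.024, where 2.37% of all genes were higher and 2.21% lower by that criterion. The deposited p-values were those of the edgeR exact test when a relative spread between samples (biological coefficient of variation, BCV) of 0.2 was put in by hand, to within 1% for 100% of genes. When that test was recomputed with a BCV of 0.2 over the 17363 genes, 3.33% were higher and 3.09% lower, Socs5 was called (adjusted p = 0.0186) and Socs2 was not (adjusted p = 0.129). With an assumed BCV of 0.4, 0.495% and 0.449% of genes were higher and lower, and no member was called, each with an adjusted p of 1 by edgeR's exact test. The spread itself was not measured.

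Socs6 and Socs7 make up the third pair and have been linked to receptor tyrosine kinase and insulin signalling. Socs6 (ENSMUSG00000056153) had 260 reads in WT and 230 in Exon2KO, or 16.6 CPM (14.6 to 18.7) and 14.4 CPM (12.6 to 16.4). A difference in Socs6 was not detectable at this depth (-0.20, -0.47 to 0.06). Socs7 (ENSMUSG00000038485, chromosome 11, 97362551 to 97398542, plus strand) had the fewest reads of the family, 99 in WT and 191 in Exon2KO, or 6.31 CPM (5.13 to 7.68) and 11.9 CPM (10.3 to 13.8). Its log2 ratio was 0.91 (0.56 to 1.29), 1.88-fold higher in Exon2KO but short of 2-fold, and it passed the threshold only when libraries were scaled by total counts, at 1.01.

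**Figure D3:**
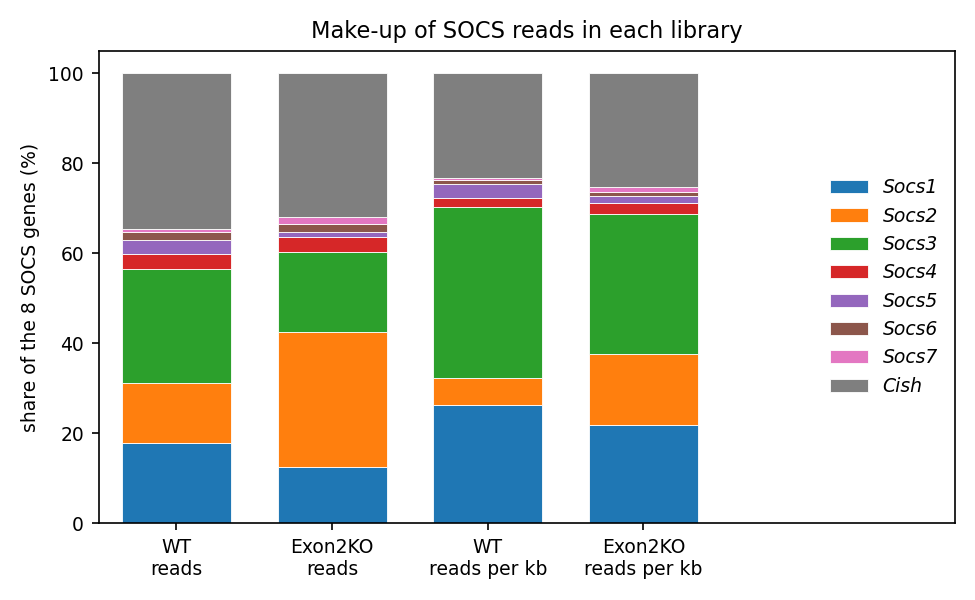
Share of each gene in the summed reads of the 8 SOCS genes, per library, as reads and as reads per kilobase of gene length. The Socs2 segment grew from 13.4% to 29.9% of reads, and the Socs1 and Socs3 segments shrank.

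The make-up of the family shows the same shift without any scaling between libraries. Of the SOCS reads, 34.5% were from Cish in WT (33.7 to 35.3, Wilson 95% limits) and 32.0% in Exon2KO (31.2 to 32.8). Socs2 went from 13.4% (12.8 to 14.0) to 29.9% (29.1 to 30.7). Socs3 went from 25.4% (24.7 to 26.2) to 17.8% (17.1 to 18.4) and Socs1 from 17.7% (17.1 to 18.4) to 12.5% (11.9 to 13.1). The 4 others together held less than Socs1 in each library, and among them Socs5 went from 3.11% (2.83 to 3.41) to 1.23% (1.05 to 1.43). Counted per kilobase, Socs2 held 6.07% in WT and 15.9% in Exon2KO, and Socs3 held 38.0% and 31.1%. For Cish the direction turned, from 23.2% in WT to 25.3% in Exon2KO per kilobase.

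All 28 pairs of members were compared in this way, by the change in the ratio of their reads. For 5 pairs the 95% interval held 0: Socs1 with Socs3, Socs2 with Socs7, Socs4 with Socs6, and Cish with each of Socs4 and Socs6. For 8 pairs the whole interval lay past 2-fold. The widest gap was between Socs2 and Socs5, with 4.31 Socs2 reads for each Socs5 read in WT and 24.4 in Exon2KO, a shift of 2.50 (2.23 to 2.77). Within the counting error the members thus fell into 4 sets: Socs2 with Socs7, Cish with Socs4 and Socs6, Socs1 with Socs3, and Socs5 alone. These sets were read from the ratios themselves and carry no test.

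**Figure D4:**
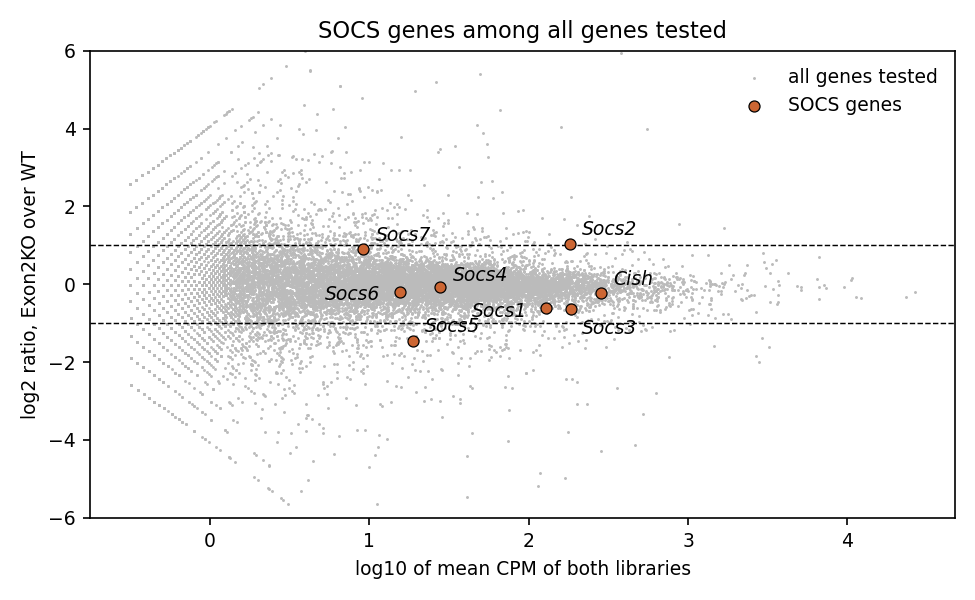
Log2 ratio of Exon2KO over WT against the log10 of the mean CPM for all 17363 genes tested (grey), with the SOCS genes in orange and dashed lines at 2-fold; 17 genes lie outside the plotted ratios. Socs2 lies just past the upper line and Socs5 past the lower one.

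The genes that SOCS proteins act on or with were followed as lists, described by counts and medians. To set beside each count of calls, 7.2% of all genes tested were called higher and 6.61% lower. Among genes with at least 250 reads these shares were 2.71% and 3.52%. Several genes stand in more than 1 list. The 11 Janus kinases and STATs, the kinases and factors that SOCS proteins restrain, all lay below 0, at a median of -0.40, and 0 were called. With total counts in place of TMM 10 of 11 lay below 0, and Tyk2 changed sign. Of the 8694 genes with at least 250 reads, 4589 had a ratio below 0. At 1.5-fold 2 of the 11 were called lower, against 10.6% of all genes tested. Stat5a, one of the STAT5 genes, had 3883 and 2308 reads and a ratio of -0.78 (-0.85 to -0.70), and Stat3 had 20036 and 13066 reads and -0.64 (-0.68 to -0.61). Jak2 was at -0.56 (-0.61 to -0.50), Jak1 at -0.21 (-0.26 to -0.16) and Tyk2 at -0.05 (-0.21 to 0.12). Scaling by total counts moves the median of all genes by 0.10, and the median of this list was then -0.29.

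Of 27 cytokine receptor genes tested, 3 were called higher and 3 lower, against 7.2% and 6.61% of all genes tested. Their median was -0.21. With a minimum of 50 reads 1 was called higher. Called lower were 2 with total counts or an assumed BCV of 0.2 and 1 at 4-fold, and with a BCV of 0.4 there were 0 calls in either direction. Among the receptors called lower, Ifnar1, a subunit of the type I interferon receptor, fell from 3174 to 1524 reads (-1.08, -1.17 to -0.997), a call that was lost with total counts. Il10ra, the ligand-binding subunit for IL-10, fell from 850 to 281 reads (-1.62, -1.82 to -1.43). Il9r, the receptor for IL-9, fell from 132 to 17 reads (-2.84, -3.81 to -2.25).

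Il23r, the receptor for IL-23, rose from 326 to 1172 reads (1.81, 1.64 to 2.00). The other 2 receptors called higher had few reads and passed the minimum of 10 only through Exon2KO: Lifr had 1 and 12, with an interval of 0.80 to 8.98 for the log2 ratio, and Epor had 0 and 11, with a lower limit of 1.301. The IL-2 receptor genes, whose signal runs through STAT5, were not called. Their log2 ratios were -0.35 (-0.43 to -0.27) for Il2ra, 0.44 (0.40 to 0.48) for Il2rb and -0.56 (-0.60 to -0.53) for Il2rg.

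Of 15 STAT-activating cytokine genes tested, 5 were called higher and 3 lower, against 7.2% and 6.61% of all genes tested. Their median was 0.10. Called higher were 3 with a minimum of 50 reads, with a 4-fold threshold or with an assumed BCV of 0.2, and with a BCV of 0.4 there were 0 calls in either direction. Il10, which signals through STAT3, rose from 14174 to 39614 reads (1.46, 1.43 to 1.48). Il22 rose from 45 to 269 reads (2.50, 2.09 to 3.04), and Il6, a classic inducer of Socs3, from 11 to 94 (2.86, 2.16 to 4.12). The other 2 called higher had few reads, nearly all in Exon2KO: Il21 had 2 and 13, with an interval of 0.53 to 5.86, and Il3 had 0 and 10, with a lower limit of 1.14. Ebi3, a subunit of IL-27 and IL-35, fell from 944 to 191 reads (-2.32, -2.56 to -2.11), and the IL-6 family gene Lif fell from 52 to 8 (-2.46, -4.01 to -1.64). Csf2, which encodes GM-CSF, fell from 95 to 23 reads (-1.98, -2.80 to -1.40).

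**Figure D5:**
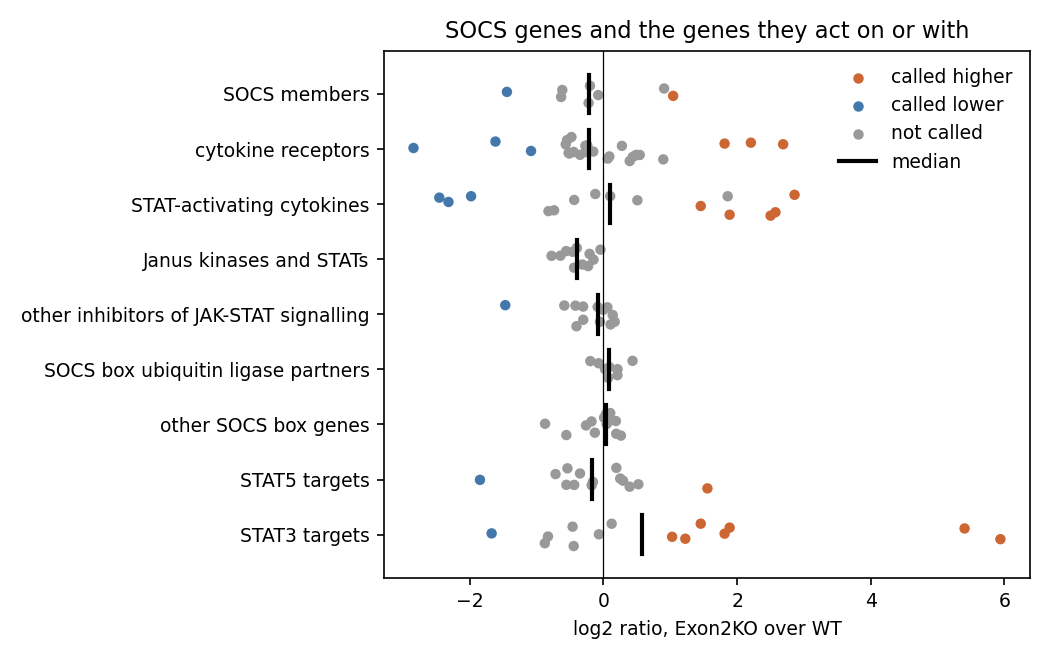
Log2 ratio of Exon2KO over WT of each tested gene of the SOCS family and of the pathway lists described here, coloured by call, with the median of each list as a black bar; Epor and Il3, at 0 reads in WT, are placed by the prior count of 2. The 11 Janus kinases and STATs lie below 0 (10 with total counts in place of TMM), and the SOCS box partners lie within 2-fold, with Rbx1 farthest from 0 at 0.44.

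Targets of the STATs that drive SOCS genes were looked at beside their SOCS counterparts. Of 14 STAT5 targets, 1 was called higher and 1 lower, against 7.2% and 6.61% of all genes tested. Their median was -0.17, and at 1.5-fold 2 were called lower. Foxp3 was the gene called higher (1.56, 1.52 to 1.60), and Myc fell from 1631 to 460 reads (-1.85, -2.01 to -1.70). Pim1, like Cish an early STAT5-induced gene, was at -0.18 (-0.25 to -0.10), next to -0.22 for Cish and 1.04 for Socs2.

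Of 14 STAT3 targets, 7 were called higher and 1 lower, against 7.2% and 6.61% of all genes tested. Their median was 0.57. Called higher were 6 with a minimum of 50 reads, 4 with an assumed BCV of 0.2, and 2 with a BCV of 0.4 or a 4-fold threshold. Called lower were 3 at 1.5-fold and 0 at 4-fold or with a BCV of 0.4. The 4 highest were Il17a (5.94, 5.75 to 6.17), Il17f (5.40, 4.996 to 6.02), Il21 and Il23r. Of these, Il21 had few reads, 2 in WT and 13 in Exon2KO, with an interval of 0.53 to 5.86. It passed the read minimum only through Exon2KO, and its place among the 4 is not settled even by counting error alone. The gene called lower was Bcl2l1 (-1.67, -1.82 to -1.54). Socs3, at -0.63, lay on the other side of 0 from that median, as did Bcl3 at -0.46 (-0.53 to -0.40), Batf at -0.83 (-0.89 to -0.78) and Rora at -0.88 (-0.91 to -0.84).

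Among 13 other inhibitors of the pathway, such as the PIAS proteins and tyrosine phosphatases, 0 were called higher and 1 lower. The gene called lower, Usp18, which damps type I interferon receptor signalling, fell from 520 to 190 reads (-1.47, -1.73 to -1.24). At 1.5-fold 2 were called lower. The median of the list was -0.09, and 0.02 with total counts, so it has no firm direction. Ptpn2, a phosphatase acting on JAKs and STATs, had 4474 and 4553 reads and a ratio of 0.00 (-0.06 to 0.06), and Ptpn1 was at 0.06 with 3990 and 4233 reads.

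Of 10 genes listed as ubiquitin ligase partners of the SOCS box, 8 were in the count table under the listed symbols. The list takes in Cul2 and Rbx1 as well as Cul5 and Rnf7. Of the 8 genes 0 were called, with a median of 0.08. Farthest from 0 was Rbx1, a RING subunit of cullin ligases, with 3730 and 5139 reads at 0.44 (0.37 to 0.50). Elob and Eloc, the elongins B and C, were at 0.09 (0.02 to 0.16) and 0.21 (0.13 to 0.28), Cul5 at 0.07 (-0.12 to 0.26) and its partner Rnf7 at 0.21 (0.11 to 0.31). These ratios were all within 2-fold, as were those of the Janus kinases and STATs.

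Markers of other cells also moved between the libraries, and SOCS genes are expressed in many cell types. In bulk RNA, fewer cells of a type and less RNA per cell cannot be told apart. Of 7 epithelial markers, 5 were called higher and 0 lower, against 7.2% and 6.61% of all genes tested. Their sum went from 70.4 CPM in WT to 246 in Exon2KO, with 0 of them at 0 reads. Epcam, which held most of the WT sum, was not called, with 782 and 609 reads (-0.39, -0.54 to -0.23). Of 4 gamma-delta T cell markers, 3 were called higher, with a sum of 11.9 and 76.9 CPM, most of it Tcrg-C1, while Trdc had 14 and 13 reads. The sums were 41.1 and 49.9 CPM for 7 myeloid markers and 74.5 and 68.2 CPM for 6 stromal and endothelial markers, where Cdh5 had 0 reads in WT. The 5 CD8 and NK cell markers summed to 11.4 and 7.82 CPM, with Ncr1 at 0 in WT and Eomes at 0 in Exon2KO. The part of these cells in the SOCS ratios was not tested.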

How the data were processed

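Colonic Treg cells of WT and Exon2KO mice gave 1 RNA-seq library each. The deposited values are raw read counts, FPKM, a scaled count signal, a log2 fold change with p-values, and gene lengths, per the file headers. The submitters' processing notes name HISAT2 2.0.5, StringTie 1.3.3b, featureCounts 1.5.0-p3, DESeq2 1.16.1 and mm10; how they were used, and the use of strand, are not given in the sources used here. Coordinates are those deposited, and 7 of the 8 members have the same ones in GENCODE M21 (GRCm38).

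Counts were scaled by TMM (edgeR 4.0.16, R 4.3.3). Quasi-likelihood fits need replicates, so an exact binomial test was run over all genes with at least 10 reads, after a check on simulated data. Log2 ratios carry a prior count of 2; their Clopper-Pearson intervals do not. Pair shifts have normal-approximation intervals. PCR copies of a molecule were not marked and count as separate reads. Alternatives covered scaling (DESeq2 1.42.0 size factors among them), read minimum, fold, prior count and assumed BCV. Python 3.11.15 and scipy 1.17.1 were used. Members and lists were chosen with earlier results of these data known. The result of 1 gene list is not reported here. All members, genes called in the signalling lists, the extremes of the target lists and neighbouring genes could be named; Stat5a, Stat3, Jak1, Jak2, Tyk2, the IL-2 receptor genes, Pim1, Bcl3, Batf, Rora, Ptpn1, Ptpn2 and the SOCS box partners are list members picked for their role.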

Additional observations from a re-analysis of the deposited data

How the results depend on the processing

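The 1 member called higher became 2 with total counts (Socs2 and Socs7) and with a 1.5-fold threshold, and 0 with a 4-fold threshold or an assumed BCV of 0.2 or 0.4. The 1 called lower became 3 at 1.5-fold (Socs5, Socs1 and Socs3) and 0 at 4-fold or with a BCV of 0.4. Both counts were unchanged under the other scalings and read minimums tried. The family median of -0.21 was -0.11 with total counts, which also turned Socs4 to 0.03 (0.0265), and it stayed between -0.21 and -0.20 under the other scalings and prior counts. Of 180 recomputed counts of calls in the pathway lists, 152 were within 1.5 times of the value given and 28 moved further. The calls among STAT5 targets and other inhibitors were 0 at 4-fold and with a BCV of 0.4. Shares per kilobase differ from shares of reads by the gene lengths alone. Depth limits Socs7, with 99 reads in WT, most. No paired analysis was possible because each genotype has 1 library, which also leaves no replicate to omit.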

Other observations

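Genes that lie next to SOCS members were looked at, and 1 of them was picked out after its values were seen. This non-coding RNA gene, 5730420D15Rik, starts 195 bases from the Socs2 start on the other strand and is annotated as sharing a bidirectional promoter. It had 34 reads in WT and 75 in Exon2KO and was called higher, with a log2 ratio of 1.07 (0.51 to 1.74), beside 1.04 for Socs2. The nearest protein-coding genes on either side of Socs2, 61229 and 63625 bases away, were not called: Cradd, an adaptor in cell death signalling, was at 0.67 (0.39 to 0.96) and Mrpl42, a mitochondrial ribosomal protein gene, at 0.31 (0.20 to 0.42). Around Socs5, which fell, Cript was at 0.32 (0.25 to 0.39) and Mcfd2 at -0.12 (-0.29 to 0.04). Around Cish, Mapkapk3 was at -0.03 (-0.13 to 0.07) and Hemk1 at -0.24 (-0.39 to -0.08). Near Socs3, Tha1 had 58 and 24 reads and was called lower (-1.23, -2.05 to -0.59), and Pgs1 was at -0.05 (-0.20 to 0.10). Near Socs1, Clec16a was at -0.15 (-0.37 to 0.07).

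Other genes with a SOCS box, outside the SOCS family itself, were also counted. Of the 13 with enough reads, 0 were called, and their median was 0.04. At 1.5-fold 1 was called lower, against 10.6% of all genes tested. Wsb1 had the most reads, 6030 in WT and 5618 in Exon2KO, at -0.13 (-0.18 to -0.08). Asb2, a ubiquitin ligase subunit, was at 0.10 (0.01 to 0.19) with 1826 and 1996 reads. The lowest ratio was that of Spsb1, with 151 and 83 reads, at -0.87 (-1.29 to -0.49).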
